A study of Homo sapiens with 12 samples.

Results

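Solute carrier (SLC) genes code for membrane proteins that move amino acids, sugars, ions, metals, vitamins and metabolites into cells and between their compartments. The transcripts of these genes were examined for binding by METTL16, eIF3a and eIF3b in HepG2 cells, a standard line grown from a human liver tumour. They were taken by symbol (SLC, a family number, the letter A and a member number), and SLC4A1 was left out. The rule found 187 genes among the 10830 gene names that carried any peak in the 6 lists. Of these, 182 were transporters by symbol alone and 5 only carry a transporter's name (SLC2A4RG, SLC4A1AP, SLC7A6OS, SLC9A3R1 and SLC9A3R2, the last 2 now named NHERF1 and NHERF2). The members came from 45 family numbers. Subfamilies with another letter, such as the B to F branches of SLC35, and the SLCO genes fall outside the rule.

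The series compared the transcripts bound by the 3 proteins and held 12 samples. For each protein there were 2 RNA immunoprecipitation (RIP-seq) samples, each with a peak list, and 2 inputs without one. Every sample came from HepG2 cells that stably overexpressed 3XFlag-tagged METTL16, eIF3a or eIF3b after lentiviral infection. Ultraviolet light fixed protein to RNA in all of these lines. The labels name a Flag antibody for METTL16 and eIF3b and an antibody to eIF3a itself for eIF3a, while the names of the deposited lists give Flag for all 6. The study's methods name both a Flag and an eIF3a antibody for RIP, without saying which samples each was used on. Which antibody the eIF3a lists came from was not settled, and if it was the eIF3a antibody, antibody and protein cannot be told apart. No list held read counts, and the depth of each library is unknown. The lists held 12921 to 21733 peaks, and the lists of eIF3a were the most unequal, with 21733 peaks in replicate 1 and 12921 in replicate 2. Of 8 hepatocyte markers 7 had a peak in some list, with 1 (SERPINA1) in every list and TTR in none, and of 4 markers of other cell types 3 had a peak somewhere and 0 in every list. The study calls its replicates biological, but nothing in the labels says that they were separate cultures, and a p-value measures only the spread between these lists.

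METTL16 is an RNA methyltransferase of the nucleus and cytoplasm. eIF3a and eIF3b are subunits of eukaryotic initiation factor 3, the large complex that holds the small ribosomal subunit ready for mRNA during the start of translation. In the liver, SLC proteins carry urea cycle intermediates across the mitochondrial membrane, take up bile acids and drugs from blood, and balance iron, zinc and manganese. Others import the glucose and amino acids that growing tumours use.

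The 5 stretches of coding sequence printed here are reference bases under called peaks, not reads. They are examples chosen without a set rule and from coding sequence only. Of the 7174 bases shared by all lists on SLC genes, 4730 lay in 3′ UTRs. In the first 4 genes the capitals mark exon bases that lay under a peak in each of the 6 lists. In the last gene they mark bases under both lists of the 1 protein that had peaks on that gene. Lower case marks up to 15 coding bases of the same exon on each side. All were read from GRCh38 on the gene's strand, 5′ to 3′.

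SLC4A2 codes for an anion exchanger that swaps chloride for bicarbonate (chr7:151064567-151064767, plus strand, exon 4 of 23). The capitals cover 186 bases with 69.4% G or C.
SLC4A2: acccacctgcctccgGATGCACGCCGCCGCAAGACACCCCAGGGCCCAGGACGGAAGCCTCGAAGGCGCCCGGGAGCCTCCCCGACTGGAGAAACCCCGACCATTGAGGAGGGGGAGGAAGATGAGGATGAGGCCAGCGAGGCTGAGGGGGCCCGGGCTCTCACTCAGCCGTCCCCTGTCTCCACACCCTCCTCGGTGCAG

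SLC38A10 codes for a member of the amino acid transporter family SLC38 (chr17:81252316-81252515, minus strand, exon 13 of 16). The shared stretch was 330 bases long, and its middle 200 bases, with 62.0% G or C, are given without flanks.
SLC38A10: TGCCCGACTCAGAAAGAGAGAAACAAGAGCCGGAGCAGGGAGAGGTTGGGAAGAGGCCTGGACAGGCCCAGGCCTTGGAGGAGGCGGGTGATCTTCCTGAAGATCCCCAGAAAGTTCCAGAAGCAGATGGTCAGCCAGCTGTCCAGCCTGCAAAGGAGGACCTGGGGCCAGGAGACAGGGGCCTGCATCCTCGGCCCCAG

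SLC6A8 codes for the creatine transporter (chrX:153688581-153688791, plus strand, exon 1 of 13). The capitals cover 181 bases with 74.0% G or C. This gene has near-identical pseudogene copies, so its peaks are uncertain.
SLC6A8: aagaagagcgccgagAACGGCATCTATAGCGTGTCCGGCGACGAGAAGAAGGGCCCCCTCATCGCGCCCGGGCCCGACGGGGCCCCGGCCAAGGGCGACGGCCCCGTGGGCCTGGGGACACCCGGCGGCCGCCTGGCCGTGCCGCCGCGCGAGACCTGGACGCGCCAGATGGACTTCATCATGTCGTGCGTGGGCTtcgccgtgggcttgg

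SLC12A4 codes for a potassium and chloride cotransporter (chr16:67945764-67945871, minus strand, exon 21 of 24). The capitals cover 104 bases with 57.7% G or C.
SLC12A4: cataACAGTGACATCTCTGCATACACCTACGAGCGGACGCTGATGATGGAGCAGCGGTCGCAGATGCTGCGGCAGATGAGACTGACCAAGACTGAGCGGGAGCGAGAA

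SLC25A28 codes for a mitochondrial iron carrier (chr10:99620090-99620300, minus strand, exon 1 of 4). The capitals cover 181 bases with 78.5% G or C, and no METTL16 or eIF3a list had a peak on the gene.
SLC25A28: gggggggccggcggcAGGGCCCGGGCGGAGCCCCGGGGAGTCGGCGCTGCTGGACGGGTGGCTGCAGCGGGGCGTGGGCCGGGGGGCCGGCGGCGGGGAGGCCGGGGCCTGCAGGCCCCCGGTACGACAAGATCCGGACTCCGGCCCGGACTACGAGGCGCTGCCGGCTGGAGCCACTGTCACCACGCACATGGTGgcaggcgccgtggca

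SLC genes had a peak about as often as other genes. Of 336 protein-coding genes annotated with such a symbol, 181 had any peak (53.9%), and of all 20007 protein-coding genes 10737 did (53.7%). The lists then differed in how many of the 187 they held. METTL16 had a peak on 91 SLC genes in replicate 1 and on 94 in replicate 2, that is 48.7% and 50.3%. eIF3a had one on 145 and 96 (77.5% and 51.3%), and eIF3b on 141 and 128 (75.4% and 68.4%). Both METTL16 lists lay below every other list, although the gap to eIF3a replicate 2 was small. The METTL16 mean was 49.5% ± 1.13, the eIF3a mean 64.4% ± 18.5 and the eIF3b mean 71.9% ± 4.92 (SD, n = 2 lists each). The difference was 22.5 percentage points between eIF3b and METTL16 and 15 points between eIF3a and METTL16, with no overlap of the lists in either pair. Both gaps shrank when each list was held to its 10000 peaks of smallest p, to 6.15 and 1.6 points, and at a fold enrichment of at least 4, to 9.63 and 4.81. Without eIF3a replicate 1 the gap of eIF3a to METTL16 was 1.87 points, and without replicate 2 it was 28.1. By an exact two-sided permutation test over lists, each gave p = 0.333 (0.5 adjusted over the 3 pairs of proteins). This is the smallest p that 2 lists against 2 allow, so no comparison between proteins here could pass 0.05. For eIF3a minus eIF3b the difference was -7.49 points (exact p = 1.0), and eIF3a replicate 1 alone lay above both eIF3b lists.

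Longer lists hold more genes of any kind, so each value was set beside the share of all 10830 genes in the same list. All genes gave 53.8% and 58.5% in the METTL16 lists, 75.4% and 48.3% in those of eIF3a, and 74.5% and 69.9% in those of eIF3b. SLC genes lay below the share of all genes in both METTL16 lists, with differences of -5.16 and -8.25 points. In the eIF3a lists they lay 2.14 and 3.08 points above it. In the eIF3b lists the differences were 0.95 and -1.45. Divided by the share of all genes, the SLC share averaged 0.882 in METTL16 lists, 1.05 in eIF3a lists and 0.996 in eIF3b lists, with no overlap of lists between any 2 proteins (exact p = 0.333 for each pair, also after adjustment).

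**Figure D1:**
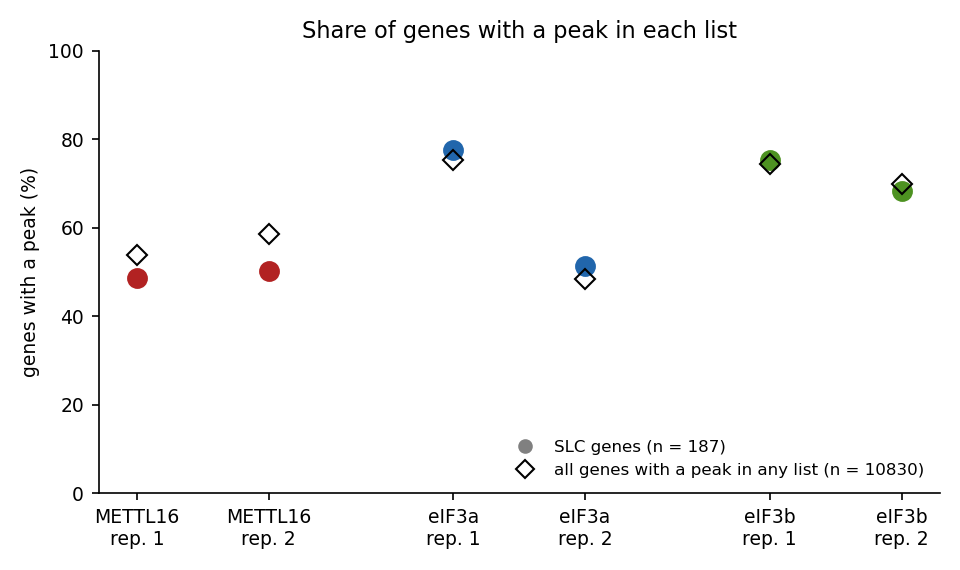
The percentage of SLC genes (filled circles, coloured by protein) and of all genes with a peak in any list (open diamonds) that had a peak in each of the 6 lists. In both METTL16 lists the SLC circle sits below the diamond, with differences of -5.16 and -8.25 points, and in the other 4 lists the circle and diamond are within 3.08 points.

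Binding was read, as in the study, from both replicates: a bound gene had a peak in each list of that protein. By this rule METTL16 bound 67 SLC genes (35.8%, against a background of 42.6% of all genes), eIF3a bound 80 (42.8% against 42.4%) and eIF3b bound 112 (59.9% against 60.0%). The eIF3a and eIF3b shares were close to their backgrounds when all peaks were used. At a fold enrichment of at least 4 the share of each protein lay below its background. The values were 13.4% against 17.9% for METTL16, 12.8% against 14.3% for eIF3a and 18.7% against 24.8% for eIF3b. Replicates agreed only in part. Of the SLC genes with a peak in either list, both lists held 67 of 118 for METTL16 (56.8%), 80 of 161 for eIF3a (49.7%) and 112 of 157 for eIF3b (71.3%). Over all genes the same percentages were 61.1%, 52.3% and 71.0%. The count for eIF3a rests on its shorter list: replicate 1 alone had 145 of the genes.

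All 3 proteins bound 44 SLC genes (23.5% against 25.2% of all genes), and 57 were bound by none (30.5% against 29.1%). METTL16 and eIF3b without eIF3a shared 19 genes (10.2% against 11.2% of all genes), eIF3a and eIF3b without METTL16 shared 22 (11.8% against 11.6%), and METTL16 and eIF3a without eIF3b shared 0 (against 0.831%). These shares were close to those of all genes. Of the 67 METTL16-bound SLC genes, 44 were bound by both eIF3 subunits (65.7%), beside 59.2% of METTL16-bound genes of any kind. Few SLC genes were bound by METTL16 without any eIF3a peak. They were 3 (1.6% against 4.17%): SLC25A47, SLC2A6, a glucose transporter family member, and SLC31A1, the copper importer. The reverse, eIF3a binding without any METTL16 peak, held for 14 (7.49% against 7.37%), and eIF3b binding without any METTL16 peak for 16 (8.56% against 9.82%). Only SLC25A47 was bound by METTL16 with no eIF3b peak (0.535% against 1.33%).

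Among the groups of transporters by substrate, the mitochondrial carriers of family SLC25, the zinc transporters and the nucleoside and vitamin transporters had more METTL16-bound than eIF3a-bound genes, and the amino acid, inorganic ion, organic ion, lipid and other metal transporters and the mixed group of all other families had fewer. The sugar, monocarboxylate and nucleotide sugar transporters had equal counts. Of 34 SLC25 genes, METTL16 bound 14 (41.2%), eIF3a 10 (29.4%) and eIF3b 18 (52.9%), where all genes gave 42.6%, 42.4% and 60.0%. Zinc transporters (SLC30 and SLC39, 15 genes) gave 6, 4 and 8 (40.0%, 26.7% and 53.3%). The METTL16 shares of both groups were thus near that of all genes. Inorganic ion and bicarbonate transporters (30 genes) gave 10, 16 and 20 (33.3%, 53.3% and 66.7%). Lipid, choline and acetyl-CoA transporters (7 genes) gave 1, 4 and 4 (14.3%, 57.1% and 57.1%). For amino acid transporters (32 genes), the counts were 14, 19 and 21 (43.8%, 59.4% and 65.6%). The groups follow family number and so include the 5 genes that only carry a transporter's name. SLC4A1AP, SLC9A3R1 and SLC9A3R2 were counted with the inorganic ion transporters, SLC2A4RG with the sugar transporters and SLC7A6OS with the amino acid transporters. METTL16 bound all of these but SLC7A6OS, eIF3a bound only SLC4A1AP, and eIF3b bound all of them. The groups are small, and their differences were not tested.

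The amino acid transporters, a large group of 32 genes, supplied 13 of the 44 genes in every list, more than any other group. Among them were SLC7A5, the importer of large neutral amino acids, its partner SLC3A2, and SLC1A5, the glutamine transporter. Sugar transporters (20 genes) were bound by METTL16 in 6 cases, by eIF3a in 6 and by eIF3b in 13. Monocarboxylate transporters of family SLC16 (8 genes) gave 1, 1 and 4. Only SLC16A3, which exports lactate, was in every list. Organic ion, bile acid and drug transporters (14 genes) gave 3, 6 and 7. Nucleoside and vitamin transporters (12 genes) had the highest METTL16 share of any group of at least 10 genes, with 7 bound by METTL16, 6 by eIF3a and 9 by eIF3b.

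**Figure D2:**
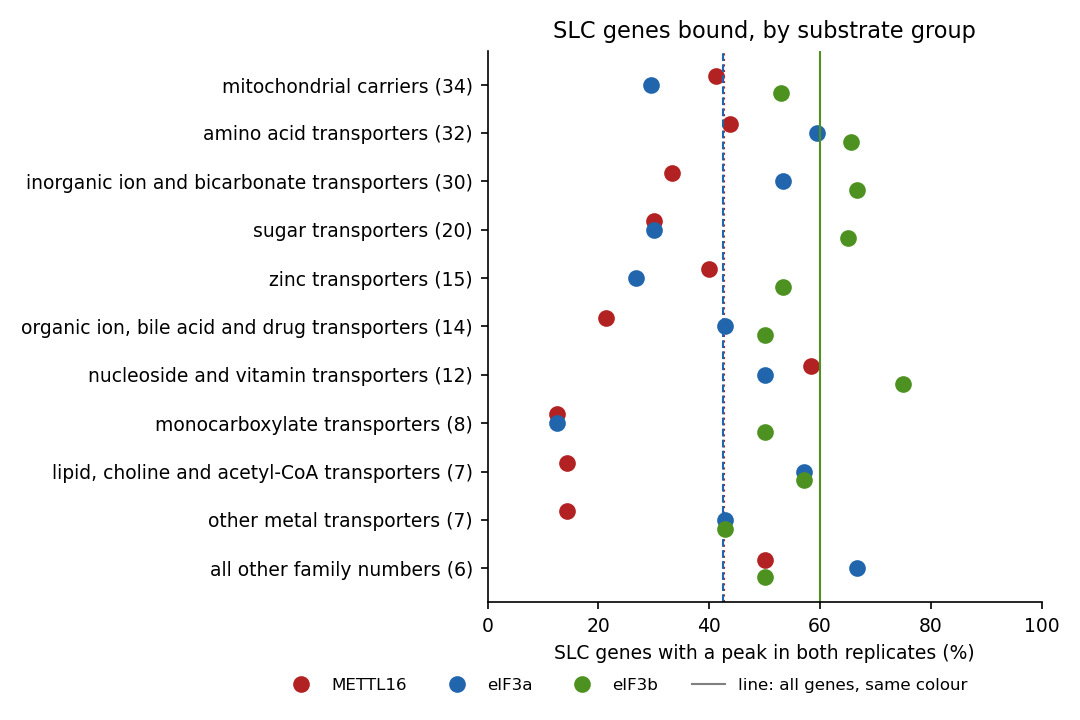
The percentage of SLC genes with a peak in both replicates of each protein, by substrate group (number of genes in parentheses, groups of at least 5 genes), with a vertical line of the same colour at the percentage of all genes. METTL16 (red) lies below 42.6% in most groups and at 58.3% in the nucleoside and vitamin transporters, and eIF3b (green) is the highest in all but 1 of the groups or ties with eIF3a.

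The 3 families of at least 4 genes in which the bound share differed most between proteins were SLC5, SLC12 and SLC29. They were picked by that difference from all families of this size, are small, and were not tested. Over all genes METTL16 bound 42.6%, eIF3a 42.4% and eIF3b 60.0%, so eIF3b was highest there too. Family SLC5, the sodium-coupled sugar and vitamin transporters, had 7 members, of which METTL16 bound 1, eIF3a 1 and eIF3b 5. SLC5A6, the multivitamin transporter, was the METTL16-bound gene, with fold enrichments of 2.32 and 2.11 for METTL16, 2.29 and no peak for eIF3a, and 2.43 and 1.75 for eIF3b. SLC5A2, the renal glucose transporter, had no METTL16 peak, no eIF3a peak in replicate 1 and 1.53 in replicate 2, and 1.81 and 1.97 for eIF3b. SLC5A3, the myo-inositol transporter, had no METTL16 peak in replicate 1 and 2.04 in replicate 2, 2.15 and 6.0 for eIF3a, and 2.73 and 5.2 for eIF3b. Fold enrichment here is that of RIP over input for the peak with the smallest p-value in each list. SLC5A10 had 7.51 in METTL16 replicate 1, 4.25 in eIF3a replicate 1, and 3.17 and 3.53 for eIF3b. SLC5A9 had 3.38 in eIF3a replicate 1 and 3.54 and 4.17 for eIF3b. SLC5A4 (19.6) and SLC5A11 (16.5) each had peaks in eIF3a replicate 2 alone. In 3 of the 5 eIF3b-bound members the reads may be shared. Peaks on SLC5A2, SLC5A6 and SLC5A10 overlapped peaks filed under a gene on the opposite strand (C16orf58, ATRAID and FAM83G). The counting is not stated to use strand, so reads of the 2 genes cannot be told apart.

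Family SLC12, the cation and chloride cotransporters, had 6 members, with 2 bound by METTL16, 4 by eIF3a and 5 by eIF3b. SLC12A7 was in every list, with 3.8 and 3.7 for METTL16, 3.23 and 9.23 for eIF3a, and 2.95 and 3.11 for eIF3b. SLC12A9 had 2.8 in METTL16 replicate 2, 3.72 and 3.76 for eIF3a, and 4.59 and 4.89 for eIF3b, and SLC12A5 had a peak in eIF3b replicate 2 alone (14.7). SLC12A2 had 5.63 in METTL16 replicate 1, 6.2 in eIF3a replicate 1, and 5.77 and 5.14 for eIF3b. The peaks of METTL16 and eIF3b replicate 1 were coding, and those of eIF3a and eIF3b replicate 2 lay in the 3′ UTR. Each eIF3b list had 1 peak on SLC12A2, so its eIF3b call came from separate places. No base of SLC12A7 lay under a peak in every list. Family SLC29, the equilibrative nucleoside transporters, had 4 members, with 3 bound by METTL16, 2 by eIF3a and all 4 by eIF3b. SLC29A1 had 4.93 and 2.32 for METTL16, 2.41 and no peak for eIF3a, and 3.43 and 2.68 for eIF3b, and SLC29A3 had 3.43, 3.61, 1.99 and 1.98 with no peak in replicate 2 of METTL16 or eIF3a. SLC29A2 was in every list, at 5.63 and 5.16 for METTL16, 3.27 and 6.52 for eIF3a, and 5.95 and 5.14 for eIF3b.

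SLC25A15 had the best rank by p-value among the SLC genes of each protein when its replicates were averaged. It codes for the mitochondrial ornithine carrier, which brings ornithine into mitochondria for the urea cycle. Its best peak lay in the last exon, in the 3′ UTR, in all 6 lists, with fold enrichments of 69.8 and 49.2 for METTL16, 47.9 and 13.5 for eIF3a, and 70.2 and 29.3 for eIF3b. Its rank among all genes of a list ran from 58 to 526, and it was not the first SLC gene in replicate 2 of METTL16 (rank 187) or of eIF3a (rank 526). The groups overlapped, and the eIF3a replicate 2 value stood lowest. The peaks of the 6 lists had widths of 388 to 448 bases and shared 358 bases at chr13:40811180-40811537 and a further 239 at chr13:40810197-40810435. The gene (ENSG00000102743) lies at chr13:40789412-40812460 on the plus strand and has pseudogene copies, so reads may have been split between copies.

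Among the 44 genes in every list, those with the highest mean fold enrichment after SLC25A15 (geometric mean of 40.7) were SLC9A7 (15.7), SLC43A2 (8.86), SLC48A1 (8.48) and SLC25A22 (6.55). SLC9A7 codes for a sodium and proton exchanger of the Golgi. It reached 17.2 and 13.1 for METTL16, 6.2 and 8.84 for eIF3a, and 27.5 and 44 for eIF3b, so eIF3b was highest and eIF3a lowest without overlap. SLC48A1, the heme transporter, had its METTL16 peaks in the coding sequence at 33.1 and 14.7. Its other peaks lay in the 3′ UTR, at 2.28 and 4.28 for eIF3a and at 17.8 and 4.4 for eIF3b. Neither SLC9A7, SLC43A2 nor SLC48A1 had a base under a peak in all 6 lists. Presence in every list was therefore not the same as a shared site. SLC25A22, a mitochondrial glutamate carrier, had 61 such bases, at chr11:791221-791281 in the 3′ UTR.

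SLC4A2 and SLC6A8, whose shared stretches are printed above, were in the coding sequence in all lists. SLC4A2 had fold enrichments of 7.95 and 9.16 for METTL16, 4.79 and 2.32 for eIF3a, and 8.11 and 3.61 for eIF3b. Its best METTL16 peaks were 1105 and 1165 exonic bases wide and ran from exon 2 to exon 8. In all 510 of its bases, on exon 4 and elsewhere, lay under a peak in every list, and all were coding. SLC6A8 had 9.14 and 20.2 for METTL16, 3.41 and 1.96 for eIF3a, and 11.4 and 4.32 for eIF3b. In both genes the eIF3a values were the lowest of the 3 proteins in their means, and for SLC6A8 both eIF3a lists lay below the other 4.

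SLC38A10 and SLC12A4 ranked among the best 5 SLC genes of eIF3a. SLC38A10 had 7.37 and 3.47 for METTL16, 4.3 and 8.28 for eIF3a, and 6.92 and 4.65 for eIF3b, so the groups overlapped. Its best peaks spread over long exon runs, up to 2667 bases in eIF3b replicate 1. SLC12A4 had 3.55 and 2.54 for METTL16, 3.46 and 5.25 for eIF3a, and 3.97 and 4.67 for eIF3b. Its widest best peak, of 2449 bases from exon 8 to exon 24, came from eIF3a replicate 2. Some SLC12A4 peaks near its 3′ end overlapped peaks of its neighbour LCAT on the same strand.

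SLC7A5 had the most bases in common. A total of 1887 bases, all in the 3′ UTR of its last exon, lay under a peak in every list, 52.1% of the bases under any peak. Fold enrichments were 5.13 and 3.88 for METTL16, 2.72 and 2.81 for eIF3a, and 4.46 and 2.66 for eIF3b. Its best eIF3a and eIF3b peaks were 2182 to 2631 bases wide and covered most of its 3′ UTR of 2950 bases. The METTL16 best peaks were 210 and 599 bases wide. SLC7A1, the arginine and lysine transporter of the same family, had 452 shared bases, of which 426 were in the 3′ UTR. SLC29A4, a monoamine transporter, had 929 shared bases, of which 748 were in the 3′ UTR. In eIF3a replicate 2 a single peak of 2861 bases reached from exon 1 to exon 11 of SLC29A4.

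SLC39A14 and SLC25A37 were among the 5 best SLC genes of METTL16. SLC39A14, which imports zinc, iron and manganese, had 2.57 and 4.27 for METTL16, 1.83 and no peak for eIF3a, and 2.0 and 1.58 for eIF3b, all in the coding sequence. Both METTL16 values were above the other 3, and its METTL16 ranks of 179 and 72 rested on small p-values at modest enrichment. SLC25A37, the other mitochondrial iron carrier, had 9.93 and 17.0 for METTL16, 2.7 and 5.07 for eIF3a, and 4.83 and 4.28 for eIF3b. Its best peak was coding in 5 lists and in the 3′ UTR in eIF3a replicate 2.

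**Figure D3:**
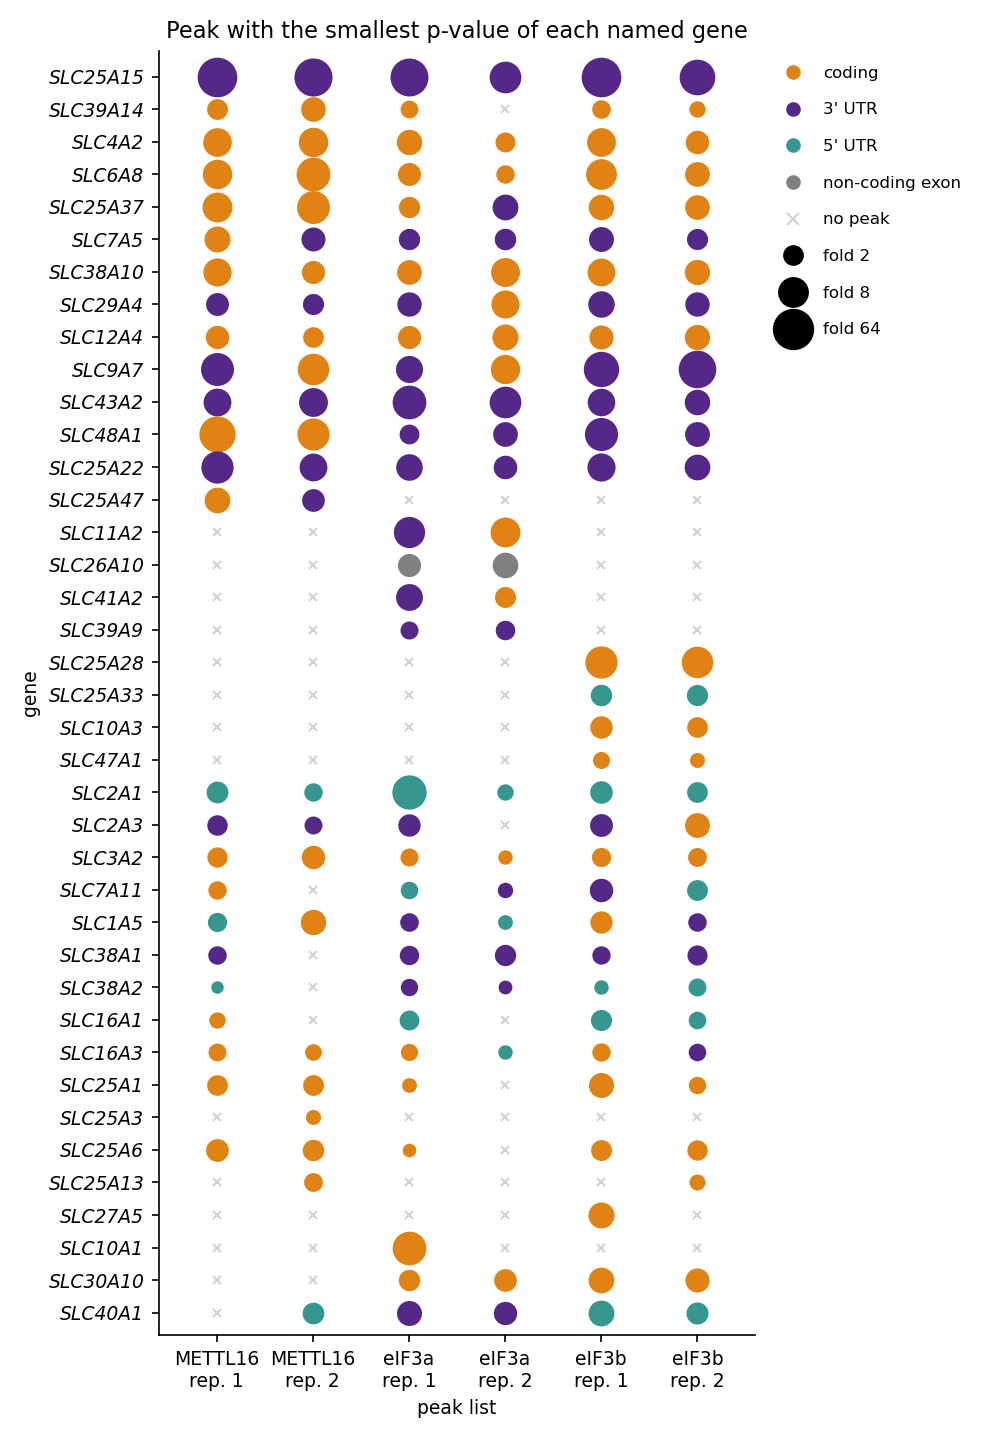
The peak with the smallest p-value of each named gene (rows) in each of the 6 lists (columns), with the circle area growing with log2 fold enrichment, the colour giving the region of its centre, and a cross where the list had no peak. SLC25A15 has a large 3′ UTR peak in all 6 lists (13.5 to 70.2), and SLC25A28 has coding peaks in both eIF3b lists and none elsewhere.

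Across the 44 genes in every list, 22 had at least 1 base under a peak in all 6 and 22 had none. Of all 2730 genes in every list, 1717 had such a base (62.9%). The shared bases of the SLC genes came to 7174, with 4730 in 3′ UTRs, 2074 coding and 361 in 5′ UTRs. SLC7A5 alone gave 1887 of them. The 5′ UTR bases included 120 in SLC2A1, the glucose transporter of most tumours, and 120 in SLC1A5.

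**Figure D4:**
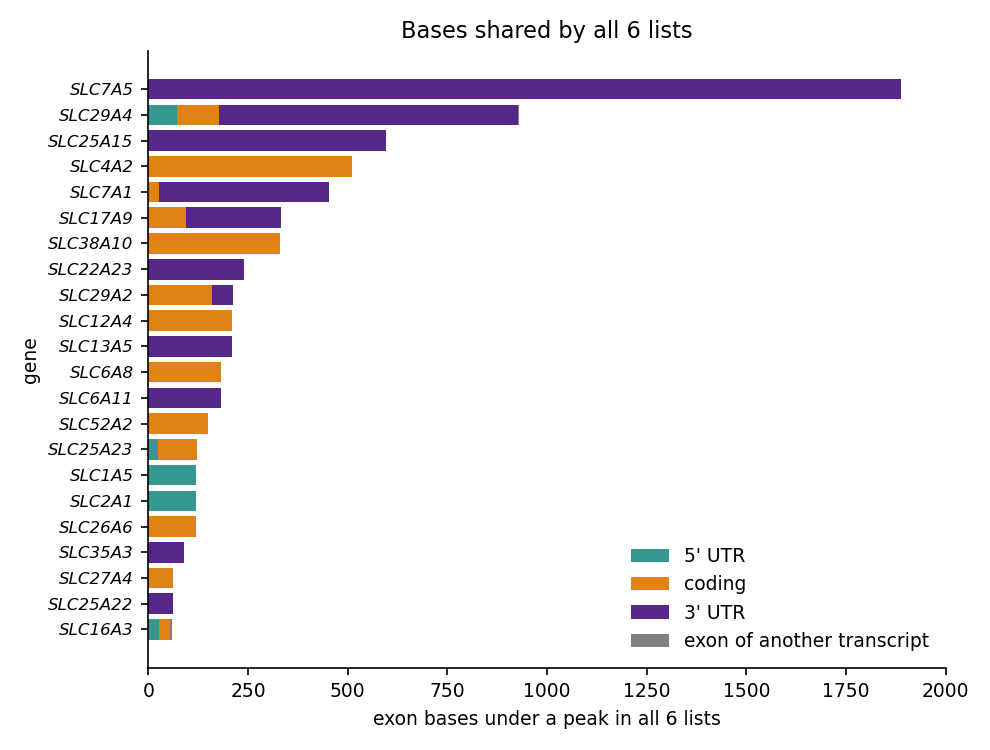
The number of exon bases under a peak in all 6 lists for the 22 SLC genes that had any, stacked by region. SLC7A5 has 1887, all in the 3′ UTR, and SLC4A2 has 510, all coding.

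METTL16 peaks on SLC genes overlapped eIF3b peaks more often than eIF3a peaks. In genes with a peak in both lists of a pair, 61.6% ± 7.76 of METTL16 SLC peaks shared a base with an eIF3a peak (SD over 4 pairs of lists, from 51.7% to 68.9%). For eIF3b the share was 77.8% ± 6.15 (71.1% to 83.0%). The ranges did not overlap, but the 4 pairs reuse the same lists and no test was made. The percentages over all genes were 63.6% and 75.9%, in the same order. By the labels METTL16 and eIF3b share the Flag antibody and eIF3a does not, so antibody and protein may not be told apart here. For comparison, the 2 METTL16 lists overlapped each other by 63.0% on SLC genes, the eIF3a lists by 55.1% and the eIF3b lists by 70.8%.

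SLC peaks lay in the 3′ UTR more often, and in the coding sequence less often, than peaks on all genes, in each of the 6 lists. The coding share of SLC peaks was 45.1% and 60.9% for METTL16, where all genes gave 60.9% and 68.6%. It was 40.9% and 39.8% for eIF3a, where all genes gave 56.7% and 57.9%. For eIF3b it was 47.2% and 40.6%, where all genes gave 61.0% and 57.6%. The 3′ UTR share of SLC peaks was 49.3% and 32.1% for METTL16, 53.6% and 55.3% for eIF3a, and 43.3% and 53.0% for eIF3b. Over all genes it was 32.0% and 24.0%, 38.1% and 38.5%, and 30.3% and 36.1%. The canonical transcripts of the SLC genes also held more 3′ UTR, 54.9% of their bases against 48.4% for all genes with a peak. They held less coding sequence, 40.0% against 46.8%. The part of gene structure in the shift was not tested.

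Between the proteins, the coding share of SLC peaks averaged 53.0% ± 11.2 in METTL16 lists, 40.3% ± 0.74 in eIF3a lists and 43.9% ± 4.64 in eIF3b lists (SD, n = 2). The difference of eIF3a minus METTL16 was -12.6 points (exact two-sided permutation p = 0.333, adjusted 0.667). The METTL16 lists stood far apart, and against replicate 1 alone the difference was -4.72 points. For the 3′ UTR share the difference was 13.8 points (exact p = 0.333, adjusted 0.5), which became 5.17 without METTL16 replicate 2, 22.4 without replicate 1, and 3.61 at a fold enrichment of at least 4. eIF3b differed from METTL16 by -9.09 points in the coding share and by 7.47 in the 3′ UTR share (exact p = 0.667 for both), within the spread of the METTL16 lists. The 5′ UTR took 5.63% and 7.07% of the SLC peaks for METTL16, 4.93% and 3.98% for eIF3a, and 9.55% and 6.38% for eIF3b.

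**Figure D5:**
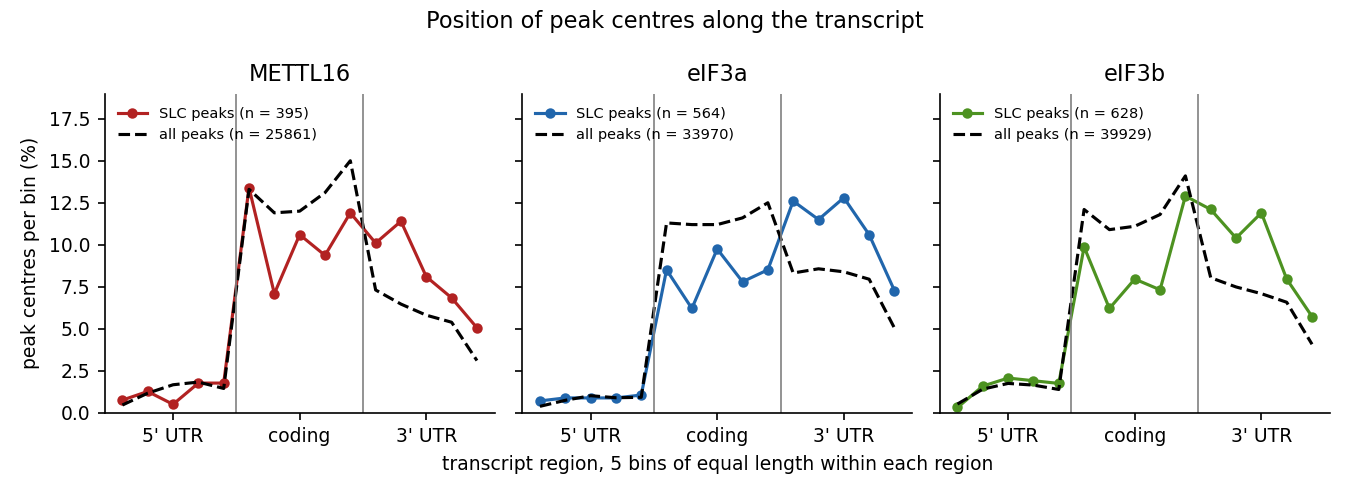
The percentage of peak centres in each of 5 equal bins of the 5′ UTR, the coding sequence and the 3′ UTR of the canonical transcript, with both lists of a protein pooled, for SLC peaks (coloured) and all peaks (black, dashed); regions are not drawn to a common length. The coloured lines lie above the dashed ones throughout the 3′ UTR and below them from the second coding bin on.

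The families differed in where their peaks lay. On SLC4 (bicarbonate transporters and SLC4A1AP), 96.8% of 63 placed peaks over all lists were coding and 0 were in the 3′ UTR. The median 3′ UTR of these genes was 328 bases. On SLC7, 77.9% of 131 peaks were in the 3′ UTR, with a median 3′ UTR of 4494 bases. The mitochondrial carriers had 57.0% of 237 peaks in the 3′ UTR, and the zinc transporters had 67.0% of 97 peaks in the coding sequence. Their median 3′ UTRs were 1430 and 1631 bases. On SLC30, a zinc family with a median 3′ UTR of 4080 bases, 82.6% of 23 peaks were coding and 8.7% were in the 3′ UTR. The part of 3′ UTR length in these positions was not tested.

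The median width of SLC peaks was 180 and 179.5 bases for METTL16, 180 and 181 for eIF3a, and 210 and 180.5 for eIF3b. Only eIF3b replicate 1 stood apart. The difference was 15.5 bases for eIF3b minus METTL16 (exact p = 0.333, adjusted 0.667) and 0.75 for eIF3a minus METTL16 (exact p = 0.667). Among the 10000 peaks of smallest p in each list these differences were wider, at 75 and 44.5 bases (exact p = 0.333 for each), and eIF3a minus eIF3b was -30.5 bases. Over all genes, the medians were 180 and 180, 180 and 210, and 210 and 181 bases. SLC peaks had a mean G and C content of 59.3% and 62.2% in METTL16 lists, 54.9% and 53.9% in eIF3a lists, and 60.2% and 56.4% in eIF3b lists. The eIF3a lists were the lowest, with a difference from METTL16 of -6.35 points (exact p = 0.333, adjusted 0.5). The letters ACAGAGA, known from the U6 RNA that METTL16 methylates, were searched on the transcript strand and occurred in 2.35% and 1.09% of the METTL16 SLC peaks, 2.03% and 3.1% for eIF3a, and 3.57% and 3.69% for eIF3b. Over all peaks the same letters occurred in 3.31% and 3.27%, 3.9% and 5.36%, and 4.07% and 4.49%. A match is a description of letters and not a site.

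The SLC genes bound by METTL16 but not eIF3a (23 genes, 12.3% against 16.5% of all genes) and by eIF3a but not METTL16 (36, 19.3% against 16.4%) differed in length. The first had a median transcript of 2361 bases and a median 3′ UTR of 938. The second had 4132 and 2587 (35 of them with a coding gene model). Over all genes, the same classes had medians of 2376 and 768 and of 4743 and 2121.

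Some SLC genes were bound by 1 protein with no peak in any list of the other 2. For METTL16 there was 1 such gene (0.535% against 0.905% of all genes), SLC25A47, a mitochondrial carrier of the liver. Its METTL16 peaks had fold enrichments of 4.97 in the coding sequence (replicate 1) and 3.28 in the 3′ UTR (replicate 2). Peaks of the 2 METTL16 lists shared only 1 base on it, although replicate 2 also had coding peaks.

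For eIF3a there were 5 such genes (2.67% against 1.13% of all genes), of which 4 are described. SLC11A2, the iron importer, had 12.4 in a 3′ UTR off the canonical transcript and 9.79 in the coding sequence, with 0 bases in common. SLC41A2, a magnesium transporter (5.95 and 2.62), and SLC39A9, a zinc transporter (1.87 and 2.21), also had 0. SLC26A10 had 3.47 and 4.9 on exons of a locus now annotated as a pseudogene, with 30 bases in common. Of the 5 genes, 3 were thus called bound from peaks at separate places.

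For eIF3b there were 4 (2.14% against 1.57%). SLC25A28 had 15.1 and 13.2 on the same 181 bases of exon 1, printed above. SLC25A33, a mitochondrial pyrimidine nucleotide carrier, had 2.78 and 2.69 on the identical 239 bases at chr1:9539469-9539707, of which 223 are 5′ UTR. SLC10A3, a member of the bile acid transporter family, had 3.17 and 2.53 with 90 bases in common. SLC47A1, a drug and cation exporter, had 1.69 and 1.4 with 91 bases in common.

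A list of 23 transporters of liver and cancer was also followed. Of these, 20 had a peak in some list, and SLC2A2, the hepatocyte glucose transporter, SLC25A5, an ADP/ATP carrier, and SLC27A2, a fatty acid transporter, had none. METTL16 bound 9 of the 23 (39.1%), eIF3a 11 (47.8%) and eIF3b 15 (65.2%), beside 42.6%, 42.4% and 60.0% of all genes. The 5 in every list were SLC2A1, SLC3A2, SLC7A5, SLC1A5 and SLC16A3. SLC2A1 had 2.91 and 1.96 for METTL16, 22.3 and 1.59 for eIF3a, and 3.22 and 2.54 for eIF3b, all in the 5′ UTR. The 22.3 stood alone. SLC3A2 had coding peaks throughout, at 2.4 and 3.58 for METTL16, 1.87 and 1.34 for eIF3a, and 2.14 and 2.06 for eIF3b. SLC1A5 had 2.14 and 4.74, 2.0 and 1.38, and 3.09 and 1.97 for METTL16, eIF3a and eIF3b in turn. In the same order the peaks lay in the 5′ UTR and coding sequence, the 3′ and 5′ UTR, and the coding sequence and 3′ UTR. For each protein the replicate values thus came from different sites.

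Several genes of this list had METTL16 peaks in 1 replicate only. SLC7A11, the cystine importer, had 1.94 and no peak for METTL16, 1.79 and 1.46 for eIF3a, and 3.62 and 2.58 for eIF3b. SLC38A1 and SLC38A2, glutamine and alanine importers, had METTL16 peaks of 1.97 and 1.15 in replicate 1 and none in replicate 2, with peaks in all 4 eIF3 lists. SLC40A1, the iron exporter, had no peak and 2.86 for METTL16, 4.48 and 3.53 for eIF3a, and 5.1 and 3.01 for eIF3b.

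A pair of genes of bile acid handling had 1 peak each. SLC10A1, the bile acid importer, had a peak in eIF3a replicate 1 (19.8), and SLC27A5, a bile acid ligase, in eIF3b replicate 1 (5.22). SLC30A10, the manganese exporter, had no METTL16 peak, 2.78 and 3.26 for eIF3a, and 5.03 and 3.96 for eIF3b. SLC25A6, an ADP/ATP carrier with near-identical copies, was bound by METTL16 (3.3 and 2.78) and eIF3b (2.59 and 2.42), with 1.25 and no peak for eIF3a. SLC25A3, the mitochondrial phosphate carrier, had a peak in METTL16 replicate 2 only (1.41).

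Peaks on some SLC genes coincided with peaks filed under another gene. There were 43 such overlaps on 9 SLC genes, 40 of them with a gene on the opposite strand. Of these, 23 lay between SLC46A1, the folate transporter, and SARM1. SLC46A1 is 1 of the 44 genes in every list. The overlaps with SARM1 fell in 5 lists, and the reads of the 2 genes cannot be told apart there if strand was not used. METTL16 replicate 2 had none.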

How the data were processed

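RNA immunoprecipitation libraries of METTL16, eIF3a and eIF3b (2 replicates each) were analysed through the deposited peak lists. The authors used STAR for alignment (GRCh38) and exomePeak at default settings for peaks of RIP over input, with 1 list per RIP sample. The exomePeak version, its annotation, the input paired with each RIP and the use of strand in counting are not given in the sources used here. The authors' lists give each peak a p-value. They also hold, as deposited, a score that is the log10 of the p-value, and a fold enrichment of RIP over input. No counts were held, so depth is unknown and no counting interval was made. Grouping followed the labels.

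Gene names were matched to GENCODE release 44, with 10325 by current symbol, 466 by an older symbol and 39 unmatched. A peak was placed where at least 50% of its bases lay on exons of any transcript of its gene. The region of its centre came from the canonical transcript, or from another transcript where the centre lay outside the canonical one. Lists were compared by exact two-sided permutation of the difference in means, adjusted by Benjamini-Hochberg over the 3 pairs of proteins. Scripts used Python 3.11.15, pandas 2.3.3 and numpy 2.4.6 and were tested on simulated data. Alternatives were a fold minimum of 4, the 10000 peaks with the smallest p in each list, a peak in either replicate, genomic span for width, strict symbols, an overlap of 50%, the replicate block, and leaving out each list. The members, groups and named genes were chosen with earlier results of these data known. Named were the 5 best ranked SLC genes of each protein, the 5 genes in every list with the highest mean fold, up to 5 bound by 1 protein alone, a list of liver and cancer transporters, and the families of at least 4 genes whose bound share differed most. Values of some of these genes are not reported here.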

Additional observations from a re-analysis of the deposited data

Results flagged for a closer look

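SLC genes as a whole lay on opposite sides of the share of all genes in METTL16 and eIF3a. METTL16 replicates gave -5.16 and -8.25 points from that share, where eIF3a replicates gave 2.14 and 3.08, a difference of means of -9.31 points. Sugar transporters (20 genes) gave -13.8 and -3.51 for METTL16 and 5.55 and 0.102 for eIF3b, a difference of -11.5 points, and 1 of the eIF3b lists was almost at the share of all genes. Peaks on its members SLC5A2, SLC5A6 and SLC5A10 overlapped peaks of genes on the opposite strand. Both items were picked for opposite signs, among the SLC genes and their groups of at least 10 genes, over 3 pairs of proteins. Organic ion, bile acid and drug transporters lay further down for METTL16 (-32.4 and -22.8). They gave 10.3 and -5.4 for eIF3a and -17.3 and -19.9 for eIF3b. Neither flagged difference was tested beyond the sign of its lists.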

How the results depend on the processing

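Of 160 alternative values, 6 reversed and 15 counts or shares moved past their limit. The other 139 neither reversed nor moved past a limit, but differences between proteins among them could change much in size. Over the 10000 peaks of smallest p, the share of genes of eIF3a minus METTL16 went from 15 to 1.6 points and of eIF3b minus METTL16 from 22.5 to 6.15, and the width of eIF3a minus METTL16 from 0.75 to 44.5 bases. Without eIF3b replicate 1, the width of eIF3a minus eIF3b was 0.0 in place of -14.8. With a fold enrichment of at least 4, METTL16 bound 25 SLC genes (13.4% against 17.9% of all genes). eIF3a bound 24 (12.8% against 14.3%) and eIF3b 35 (18.7% against 24.8%), and all 3 bound 9. With the 10000 peaks of smallest p per list, eIF3a bound 52 (27.8% against 29.5%), eIF3b 72 (38.5% against 36.3%) and all 3 bound 29. With a peak in either replicate, METTL16 had 118, eIF3a 161 and all 3 had 104. The overlap of METTL16 with eIF3a and eIF3b peaks was 44.2% and 68.8% at a fold of at least 4, and 49.7% and 66.9% where 50% of the peak had to overlap. At a fold of at least 4, eIF3a minus eIF3b became -0.738 points in the 3′ UTR share and 2.51 in the coding share. By genomic span, the width of eIF3a minus METTL16 was -13.2 bases. As a percent of each list's share of all genes, an alternative chosen after seeing the data, eIF3a minus eIF3b was 5.01.

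Leaving out 1 list gave 96 to 145 eIF3a-bound genes (145 without eIF3a replicate 2), -20.6 to 5.61 points for the share of genes of eIF3a minus eIF3b (5.61 without eIF3a replicate 2), and -1.14 to 16 points for the 3′ UTR share of eIF3b minus METTL16 (-1.14 without METTL16 replicate 2). The causes were not tested. Same-numbered lists did not deviate together (correlations of 0.00124, -0.013 and -0.0431). The labels name no batch, and these values cannot show whether same-numbered lists were handled together. With the replicate block, the differences in the share of genes were 15, 22.5 and -7.49 points, and no call changed. No depth is known, so a gene without a peak may be bound below detection.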
